A study of Drosophila melanogaster with 5 samples.

Results

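Mitosis, spindle and centrosome genes were followed as a list of 54 genes chosen by their known role in cell division. The platform annotation gave 42 of them a probe set, the group of probes that reports one transcript, with their symbol alone, out of 11981 genes with such a probe set in all. Where a gene had several, the probe set with the highest mean over the 5 arrays was taken. The other 12 genes (CycA, stg, Cdk1, polo, aurA, BubR1, pav, sti, Klp3A, asp, vtd and cnn) had no probe set named here and were not measured, which leaves out the kinase that drives entry into mitosis, its activating phosphatase String, and the kinases Polo and Aurora A. No filter on low values was used. None of the 42 measured genes had a mean under 3.84, the median of all probe set means on the log2 scale. This held for 4496 of all 11981 genes, so shares over all genes include many dimmer genes.

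Cells enter mitosis when cyclin-bound Cdk1 becomes active, and leave it when the anaphase-promoting complex (APC/C) marks cyclins and securin for destruction. In between, centrosomes organise a spindle of microtubules, kinetochores tie the chromosomes to it, and a contractile ring divides the cell. In the larval brain these genes are used by neuroblasts, the neural stem cells that divide asymmetrically, and by the cells of the optic lobe, and in the eye-antennal disc by its growing epithelium. Lgl, the product of lethal giant larvae, is a cytoskeletal protein of the cell cortex that acts in apico-basal polarity and as a tumour suppressor in brain and discs.

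RNA came from cephalic complexes, the brain lobes with the eye discs, of 3rd instar larvae, and was hybridised to Affymetrix Drosophila gene chips. The mutant group was 3 biological replicates of lgl27S3/lglE2S31 larvae at day 4 of the instar, which carry 2 different lgl alleles and are described as null, and the control group was 2 biological replicates of FRT82B larvae at day 0. The study's text names its day 0 control as a white-eyed wild-type stock and the sample labels as FRT82B, a stock with a recombination target site on a chromosome arm. Control larvae pupate soon after day 0 whereas lgl larvae go on growing, so that genotype and age differed together and cannot be told apart.

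All values are log2 expression after robust multichip averaging, so that a difference of 1 is a factor of 2, and every change is given as lgl minus FRT82B. Calls of change needed both an adjusted p below 0.05 in limma (Benjamini-Hochberg over 18769 probe sets) and a difference of 1 or more in either direction. The lgl transcript itself, l(2)gl, measured 2.44, 2.40 and 2.24 on the lgl arrays, against 7.74 and 6.74 on the FRT82B arrays (change -4.88 ± 0.31 SE, adjusted p = 0.0209), which matched the labels. Some genes that mark the labelled tissue were well above the median of all probe sets on every array. The neuronal gene elav had 8.83 to 9.57 in lgl, against 9.18 and 10.29 in FRT82B. The glial gene repo had 8.84 to 8.89 in lgl, against 7.67 and 8.50 in FRT82B. The eye disc gene dac had 8.51 to 8.73 in lgl, against 7.73 and 8.95 in FRT82B. These genes do not stand for their marker lists. Below both controls lay 6 of 8 neuron markers and 5 of 9 glia markers, where 21.1% of all genes did. Of 10 eye-antennal disc markers, ato was called lower (change -1.47), where 1.05% of all probe sets were called in either direction. Another 3 (gl, sens and lz) had a mean under the median of all probe sets. The lgl arrays were closely alike (correlations over all probe sets 0.995 to 0.997), whereas the FRT82B arrays correlated at 0.981 with each other and differed by 1 or more at 994 probe sets, against 84 to 110 between pairs of lgl arrays. FRT82B array 1 correlated at 0.971 to 0.972 with the lgl arrays and FRT82B array 2 at 0.982 to 0.984, so the second control array resembled the lgl arrays as closely as it did the first.

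None of the 42 measured mitosis genes was called changed, where 1.05% of all probe sets were. With FRT82B array 2 left out, 6 of them were called, all higher (CycB3, Incenp, borr, scra, feo and spd-2), where 6.96% of all probe sets were called in that fit, and with FRT82B array 1 left out, 0 were. Leaving out any 1 of the lgl arrays left 0 calls among all probe sets. Most nevertheless lay higher in lgl complexes: 37 had a change above 0 and 5 below it, where 5334 of all 11981 genes were above 0. The median change of the 42 was 0.28, against -0.03 over all genes. After a second quantile normalisation the split was 34 above 0 and 8 below, where 49.5% of all genes were above 0. After median centring it was 37 above and 5 below, where 54.2% of all genes were above 0. Without FRT82B array 2 the split was 27 above 0 and 15 below, where 42.7% of all genes were above 0. One gene, Ndc80, had an adjusted p under 0.05 but a change under 1, where 1.63% of all probe sets had such a p. At an unadjusted p under 0.05 there were 18 genes higher in lgl and 0 lower, where 10.8% of all genes were higher and 11.3% lower at that level. This count was 7 without lgl array 1, 7 without lgl array 2 and 11 without lgl array 3, where 6.62% to 8.08% of all genes were higher, and 26 without FRT82B array 1, where 14.2% were. Without FRT82B array 2 it was 19 higher and 6 lower, where 20.8% of all genes were higher and 25.3% lower.

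The values on the arrays themselves showed the same asymmetry. All 3 lgl arrays exceeded both FRT82B arrays for 21 of the 42 genes, where this held for 17.6% of all genes, and for 0 of them did the lgl arrays lie below both, where this held for 21.1% of all genes. In the remaining 21 genes the arrays overlapped. Changes ran from -0.29 (asl) to 1.11 (feo), and only feo, Incenp and scra reached a change of 1. In whole tissue, fewer cells of a type and less RNA per cell cannot be told apart, and the same holds for more of either.

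**Figure D1:**
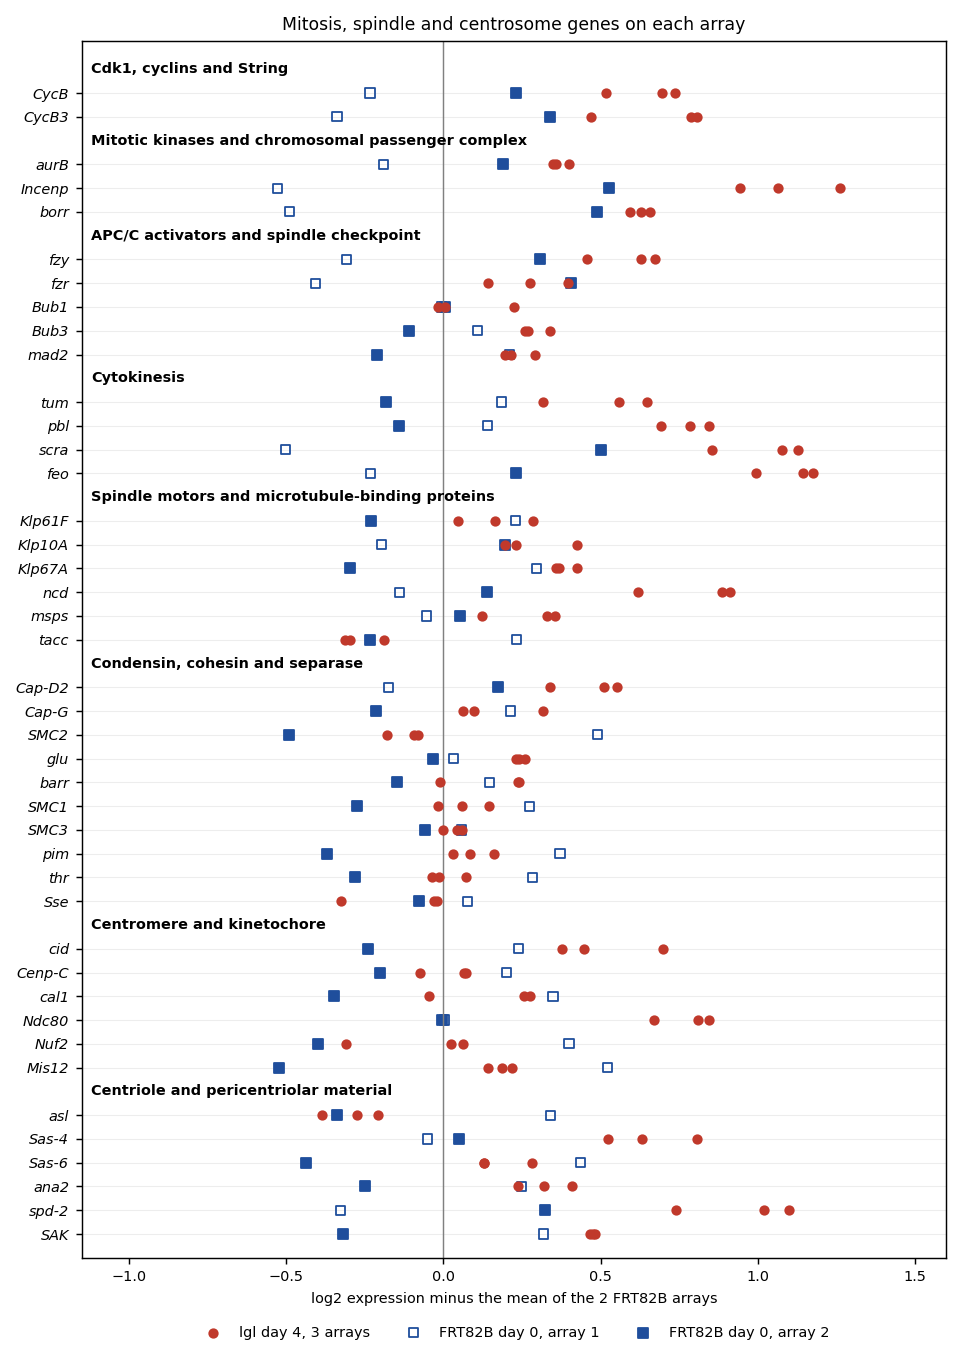
Expression of the 42 measured mitosis genes on each array, as log2 value minus the mean of the FRT82B arrays, with genes grouped by role. Red circles are the 3 lgl day 4 arrays, open and filled blue squares the FRT82B day 0 arrays 1 and 2. In 21 genes all red circles lie to the right of both squares, in the other 21 they overlap or fall between the squares, and the squares are often far apart.

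The mitotic cyclins were represented by CycB and CycB3, the B-type partners of Cdk1, and both were higher in every lgl array. CycB measured 9.67, 9.71 and 9.50 in lgl, against 8.74 and 9.21 in FRT82B (change 0.65 ± 0.17 SE, adjusted p = 0.152). The groups did not overlap, and FRT82B array 1 was the lowest by a clear margin. CycB3 measured 10.00, 9.98 and 9.66 in lgl and 8.85 and 9.53 in FRT82B (change 0.69 ± 0.24 SE, adjusted p = 0.245), with lgl array 3 only just above FRT82B array 2.

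The chromosomal passenger complex, which corrects faulty attachments of chromosomes and later marks the site of cleavage, had 3 measured members. All of them lay above both controls, where 17.6% of all genes did. Incenp, its scaffold, had 9.22, 9.42 and 9.10 in lgl, against 7.63 and 8.68 in FRT82B (change 1.09 ± 0.34 SE, adjusted p = 0.204). The control arrays differed from each other by 1.06 for Incenp, about as much as the groups did. aurB, its kinase, had 8.69, 8.74 and 8.69 in lgl and 8.15 and 8.52 in FRT82B (change 0.37 ± 0.13 SE, adjusted p = 0.241). The subunit borr, Borealin-related, had 9.80, 9.86 and 9.83 in lgl and 8.72 and 9.69 in FRT82B, so that the lgl arrays were nearly equal and stood 1.12 above the first control but 0.14 above the second.

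Among regulators of anaphase onset, fzy, the Cdc20 activator of the APC/C, was higher and the checkpoint genes were mixed. Its brightest probe set gave 8.97, 9.01 and 8.79 in lgl, against 8.03 and 8.64 in FRT82B (change 0.59 ± 0.21 SE, adjusted p = 0.247). A dimmer fzy probe set had a similar change of 0.53 with no overlap, and the dimmest one, at 3.17 to 3.23 in lgl and 3.28 and 3.13 in FRT82B, had a change of 0.00. fzr, the Cdh1-type activator that acts at the end of mitosis, had 8.70, 8.58 and 8.45 in lgl and 7.90 and 8.71 in FRT82B, and thus fell between the control arrays.

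The spindle checkpoint, which delays anaphase until every kinetochore is attached, was measured through Bub1, Bub3 and mad2. Bub3 had 11.13, 11.20 and 11.12 in lgl and 10.97 and 10.75 in FRT82B, a small difference of 0.29 ± 0.09 (SE, adjusted p = 0.204) without overlap. The kinase gene Bub1 was nearly level, at 6.49, 6.73 and 6.51 in lgl and 6.50 and 6.51 in FRT82B (change 0.07 ± 0.10 SE, adjusted p = 0.715). For mad2 the change was 0.23, and the first control array lay among the lgl values.

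Cytokinesis genes had a median change of 0.90, at 0.98 against FRT82B array 1 and 0.78 against array 2. All 4 measured members were above both controls, where 17.6% of all genes were. feo, which bundles microtubules of the central spindle, measured 10.00, 10.03 and 9.85 in lgl, against 8.62 and 9.08 in FRT82B (change 1.11 ± 0.16 SE, 2.15-fold, adjusted p = 0.0605). pbl, an exchange factor needed to form the cleavage furrow, had 9.19, 9.25 and 9.10 in lgl and 8.55 and 8.27 in FRT82B (change 0.77 ± 0.11 SE, adjusted p = 0.0594). In both genes the gap between the groups exceeded the spread within either, and the adjusted p was just above 0.05.

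The other measured cytokinesis genes did not overlap either. scra, fly anillin, which links the contractile ring to the membrane, had 9.44, 9.39 and 9.17 in lgl and 7.81 and 8.81 in FRT82B (change 1.02 ± 0.32 SE, adjusted p = 0.208). tum, the RacGAP subunit of centralspindlin, had 8.93, 9.02 and 8.69 in lgl and 8.56 and 8.19 in FRT82B (change 0.51 ± 0.16 SE, adjusted p = 0.210). For scra the first control array was the low one, for tum the second.

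Of the spindle motors and microtubule-binding proteins, 3 of 6 were above both controls, where 17.6% of all genes were. ncd, the minus-end-directed kinesin that focuses spindle poles, had 9.99, 10.02 and 9.73 in lgl, against 8.97 and 9.25 in FRT82B (change 0.81 ± 0.14 SE, adjusted p = 0.0808), and its groups were well apart. Klp67A, the kinesin-8 that shortens spindle microtubules, and msps, a microtubule polymerase, had smaller changes of 0.38 and 0.27. tacc, which recruits msps to centrosomes, went the other way, at 9.10, 8.99 and 8.98 in lgl and 9.52 and 9.06 in FRT82B (change -0.27 ± 0.16 SE, adjusted p = 0.434), with the second control array among the lgl values. The bipolar kinesin Klp61F and the depolymerising kinesin Klp10A had changes of 0.17 and 0.28 with overlap.

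Condensin, cohesin and separase genes compact sister chromatids, hold them together and let them go. Their median change was 0.08, at -0.13 against FRT82B array 1 and 0.30 against array 2. Above both controls lay 2 of 10 measured members (20.0%), near the 17.6% of all genes. Cap-D2, a condensin I subunit, had 8.74, 8.79 and 8.57 in lgl, against 8.06 and 8.41 in FRT82B (change 0.47 ± 0.14 SE, adjusted p = 0.188). The condensin ATPase gene glu had 8.47, 8.45 and 8.44 in lgl and 8.24 and 8.18 in FRT82B, a difference of 0.24 ± 0.06 (SE, adjusted p = 0.133). Those were the members of this group without overlap.

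For 5 of these 10 genes, SMC2, SMC1, SMC3, pim and thr, all lgl values fell between the control arrays. pim, the fly securin, had 8.47, 8.39 and 8.34 in lgl and 8.68 and 7.94 in FRT82B (change 0.09 ± 0.23 SE, adjusted p = 0.854). SMC2, the partner of glu in condensin, had 8.84, 8.85 and 8.75 in lgl, against 9.42 and 8.44 in FRT82B. Separase, Sse, was at 5.97, 5.98 and 5.67 in lgl and 6.08 and 5.92 in FRT82B (change -0.13 ± 0.13 SE, adjusted p = 0.619). The condensin subunits Cap-G and barr, with changes of 0.16 and 0.16, overlapped the first control array.

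Among kinetochore genes, 2 of 6 lay above both controls, where 17.6% of all genes did. Ndc80, the outer subunit that binds microtubules, had 8.31, 8.34 and 8.17 in lgl, against 7.50 and 7.50 in FRT82B (change 0.78 ± 0.08 SE, 1.71-fold, adjusted p = 0.0324). Its control arrays were almost equal, and all lgl arrays were higher. The adjusted p was 0.0669 without FRT82B array 1 and 0.1495 to 0.2 without 1 of the lgl arrays, with the change between 0.74 and 0.83. Nuf2, which forms a dimer with Ndc80, had 8.14, 8.10 and 7.77 in lgl and 8.48 and 7.68 in FRT82B (change -0.07 ± 0.28 SE, adjusted p = 0.904), with its lgl values between the controls; whether the 2 partners differed from each other was not tested.

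The centromeric histone gene cid had 6.57, 6.49 and 6.81 in lgl and 6.36 and 5.88 in FRT82B (change 0.51 ± 0.19 SE, adjusted p = 0.259), without overlap. Cenp-C and cal1, which hold and load this histone, had changes of 0.02 and 0.16, and Mis12, which joins the inner to the outer kinetochore, of 0.18. For these 3 genes every lgl value lay between the control arrays, which were 1.04 apart for Mis12.

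Centriole and pericentriolar genes were split as well. spd-2, which builds the material around the centriole, had 8.65, 8.73 and 8.37 in lgl, against 7.30 and 7.96 in FRT82B (change 0.95 ± 0.23 SE, adjusted p = 0.142). Sas-4, needed to make the centriole wall, had 7.32, 7.50 and 7.21 in lgl and 6.64 and 6.74 in FRT82B (change 0.65 ± 0.11 SE, adjusted p = 0.0718). Neither gene overlapped, and the control arrays for Sas-4 were within 0.10 of each other.

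SAK, the Polo-like kinase that starts centriole duplication, was at 6.40, 6.41 and 6.39 in lgl and 6.24 and 5.61 in FRT82B (change 0.47 ± 0.20 SE, adjusted p = 0.321), above both controls but near the first. asl, its centriolar receptor, had the lowest change of all members, at 7.87, 7.94 and 7.76 in lgl, against 8.49 and 7.81 in FRT82B (change -0.29 ± 0.22 SE, adjusted p = 0.513). The second control array lay among the lgl values of asl. The centriole assembly genes Sas-6 and ana2 had changes of 0.18 and 0.32 with overlap.

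**Figure D2:**
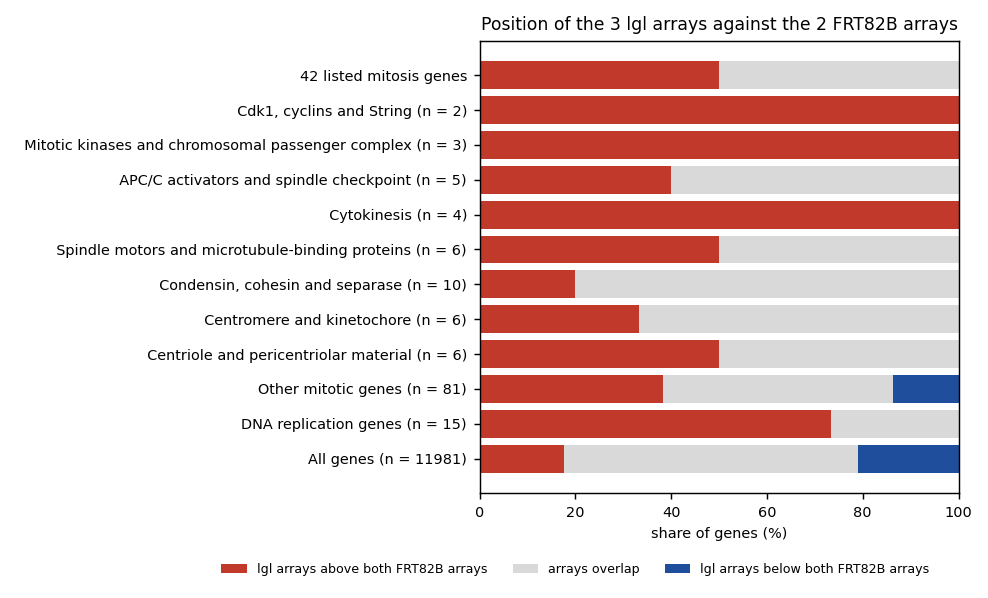
Share of genes, in percent, whose 3 lgl arrays all lay above both FRT82B arrays (red), overlapped them (grey) or lay below both (blue), for the mitosis genes, their 8 role groups, other mitotic genes, DNA replication genes and all genes. Red takes 21 of the 42 mitosis genes, against 17.6% of all genes, and no role group has a blue segment.

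How far a gene appeared higher depended on which control array was used. All lgl arrays exceeded FRT82B array 1 for 23 of the 42 genes, where 32.5% of all genes did so, and they exceeded FRT82B array 2 for 36, where the share of all genes was 32.4%. They lay below array 1 for 13 genes, where 43.8% of all genes did, and below array 2 for 1 gene, fzr, where 34.6% did. The median change was 0.17 against array 1 and 0.39 against array 2. The control arrays themselves were far apart for these genes: their median distance was 0.46, against 0.26 over all genes, and 18 of the 42 differed by 0.5 or more. All genes include 4496 of 11981 with a mean under the median of all probe sets, against 0 of the 42. The distance over brighter genes alone was not computed.

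The control arrays did not differ in one direction only. Array 1 was the higher one for 26 genes and array 2 for 16, with a median of array 2 minus array 1 of -0.25. Of the 21 genes above both controls, 13 were higher on array 2, among them CycB, CycB3, Incenp, borr, fzy, scra and spd-2. Of the 21 overlapping genes, 18 were higher on array 1, with all 6 kinetochore genes among the 26 that were higher there. The lgl arrays had a median SD of 0.11 over the 42 genes, a measure unlike the distance between 2 arrays given for the controls.

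**Figure D3:**
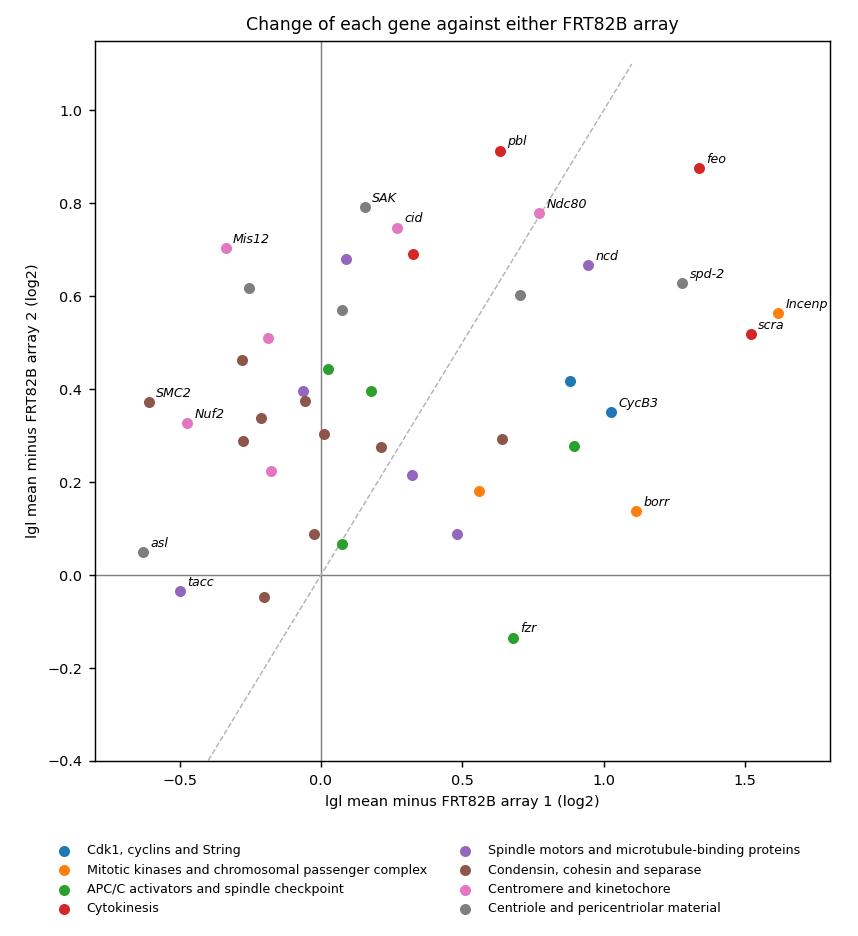
Change of each of the 42 mitosis genes in lgl against FRT82B array 1 (horizontal axis, log2) and against FRT82B array 2 (vertical axis, log2), coloured by role, with equal changes on the dashed line. Points left of the vertical zero line were lower in lgl than array 1, and nearly all points lie above the horizontal zero line, while Ndc80 sits on the dashed line at 0.77 and 0.78.

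A further list of 96 mitotic genes outside the 54, of which 81 were measured, was set beside the 42. The lgl arrays lay above both controls for 31 of them (38.3%), where this held for 17.6% of all genes. They lay below both for 11 (13.6%), where this held for 21.1% of all genes, and the median change was 0.20. None was called changed, where 1.05% of all probe sets were. At an unadjusted p under 0.05, 19 were higher and 7 lower, where 10.8% of all genes were higher and 11.3% lower. Rca1, an inhibitor of the APC/C that lets cyclins accumulate, was the one with an adjusted p under 0.05, at 10.35, 10.32 and 10.49 in lgl, against 9.56 and 9.58 in FRT82B (change 0.82 ± 0.08 SE, adjusted p = 0.0301).

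The widest differences in the further list were in spindle and contractile ring genes. mei-38, a spindle microtubule protein, had 7.54, 7.42 and 7.75 in lgl and 5.75 and 6.64 in FRT82B (change 1.38 ± 0.29 SE, adjusted p = 0.114). dia, the formin that assembles actin in the contractile ring, had 7.03, 7.23 and 7.14 in lgl and 5.47 and 6.21 in FRT82B (change 1.30 ± 0.24 SE, adjusted p = 0.0880). Neither overlapped. The kinesin gene neb had a change of 1.11 (adjusted p = 0.162), with every lgl array above both controls.

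Mitotic regulators of the further list included gwl, the Greatwall kinase that restrains a mitotic phosphatase, at 6.17, 6.31 and 5.85 in lgl and 5.05 and 5.15 in FRT82B (change 1.01 ± 0.16 SE, adjusted p = 0.0673). eco, the acetyltransferase that establishes cohesion, was at 7.42, 7.48 and 7.17 in lgl and 6.45 and 6.53 in FRT82B (change 0.86 ± 0.12 SE, adjusted p = 0.0546). For both the gap between the groups was wider than the spread within them. rod and Zwilch, partners in a kinetochore complex, had changes of 0.73 and 0.59 without overlap. Cdc23, an APC/C subunit, was above both controls, by 1.00 against FRT82B array 1 and 0.14 against array 2, whereas Cks30A, a Cdk1-binding protein, overlapped array 1, with differences of 0.09 and 1.02.

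The further list, but not the 42, held genes whose lgl arrays were all below both controls. san, an acetyltransferase needed for sister chromatid cohesion, had 7.77, 7.71 and 7.52 in lgl, against 8.71 and 8.17 in FRT82B (change -0.77 ± 0.19 SE, adjusted p = 0.140). Rcd4, a centriole gene, had 7.82, 7.97 and 7.79 in lgl and 8.61 and 8.23 in FRT82B (change -0.56 ± 0.14 SE, adjusted p = 0.145). Grip75, a subunit of the gamma-tubulin ring complex, had a change of -0.42. These 3 genes were among the 11. The augmin gene dgt2 and the centriole gene ana3 had changes of 0.42 and 0.61 with overlap.

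**Figure D4:**
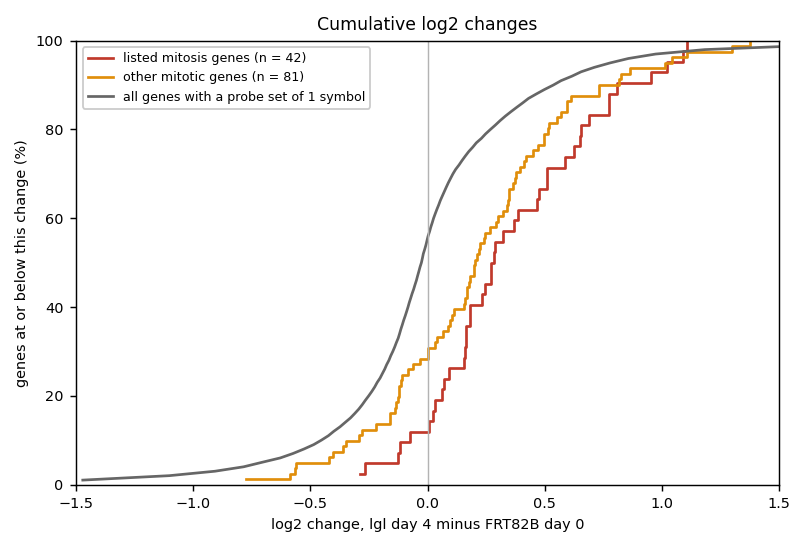
Cumulative share of genes, in percent, at or below each log2 change in lgl relative to FRT82B, for the 42 mitosis genes (red), the 81 other mitotic genes (orange) and all 11981 genes (grey). The red curve lies to the right of the grey one through its middle, with medians of 0.28 and -0.03, and the orange curve has a median of 0.20.

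Other gene groups lay higher in lgl as well. DNA replication genes, which are used in the preceding S phase, were above both controls for 11 of 15 measured members and below both for 0. Their median change was 0.55. Over all genes, 17.6% were above both and 21.1% below both. Neuroblast markers were above both for 8 of 10 measured members, with a median change of 1.49. Of these markers 4 were called changed (mira, grh, cas and the differentiation factor pros), where 1.05% of all probe sets were. Among those not called, dpn and wor lay above both controls, with changes of 1.20 and 0.996. Those that overlapped were ase and brat, with changes of 0.15 and 0.34. The summed linear level of the neuroblast markers was 7739 to 8680 in lgl, against 2361 and 2902 in FRT82B. That of the 42 mitosis genes was 18166 to 20388 in lgl, against 15281 and 14820 in FRT82B. The neuroblast gene mira, an adaptor of asymmetric division, had a change of 2.54 (adjusted p = 0.0324) and pros, the differentiation factor it carries, of 2.62 (adjusted p = 0.0456), each higher on all 3 lgl arrays.

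Among markers of other cells, those of neurons, glia and ring gland were mostly lower. Called lower were 3 ring gland markers, 1 of neurons, 1 of glia and 1 of the eye-antennal disc. Called higher was 1 haemocyte marker, where 1.05% of all probe sets were called in either direction. Over all genes, the lgl arrays were above both controls for 17.6% and below both for 21.1%. Neuron markers were below both controls for 6 of 8 measured members (summed level 1524 to 1878 in lgl, 3663 and 3237 in FRT82B) and glia markers for 5 of 9 with 1 above (2745 to 3004 in lgl, 6124 and 3957 in FRT82B). Ring gland markers were below both for 6 of 9 (434 to 479 in lgl, 1260 and 1459 in FRT82B), and muscle markers for 3 of 6 (99.9 to 122 in lgl, 335 and 155 in FRT82B). Eye-antennal disc markers were above both for 2 and below both for 1 of 10 (1387 to 1510 in lgl, 1022 and 1300 in FRT82B). Haemocyte markers were above both for 5 of 10 (1065 to 1808 in lgl, 909 and 833 in FRT82B) and tracheal markers for 4 of 5 (1239 to 1547 in lgl, 375 and 766 in FRT82B). Markers with a mean under the median of all probe sets numbered 1 for neurons, 3 for the eye-antennal disc, 1 for trachea, 3 for the ring gland, 4 for muscle and 0 for the remaining lists. The part of these groups in the values of the mitosis genes was not tested.

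Measures of RNA integrity were not all alike in the groups. For actin, the control probe sets at the 3′ end exceeded those at the 5′ end by 0.36, 0.58 and 0.57 in lgl, against 0.71 and 0.73 in FRT82B, and for eIF-4a by 1.41, 1.62 and 1.66 in lgl, against 1.68 and 2.01 in FRT82B. The same differences for GAPDH and 18S rRNA overlapped. Whether this contributed to the changes of the mitosis genes was not tested.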

How the data were processed

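Biotin-labelled cRNA from 3 lgl and 2 FRT82B samples had been hybridised to Affymetrix Drosophila chips. The authors background-corrected and normalised the arrays with the robust multichip averaging (rma) algorithm, and the deposited values are on the log2 scale, 1 per probe set and array. That step equalises the overall distribution of the arrays, so changes are relative to all transcripts. The number of arrays limits the precision. A further FRT82B sample set aside by the submitters for quality reasons was not analysed here.

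The 183 control probe sets were left out, and the remaining 18769 were fitted in limma 3.58.1 under R 4.3.3 with a 2-group linear model and empirical Bayes moderation. Benjamini-Hochberg adjustment ran over all 18769, and the thresholds were those of the study, an adjusted p of 0.05 and a change of 1 on the log2 scale. The fit was first checked on simulated data. The titles call the samples biological replicates. No p-value was computed over a list of genes.

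Of the probe sets, 13646 carried 1 gene symbol, 402 several and 4721 none in the platform table, and 13543 matched a current gene. Only probe sets with 1 symbol were named, and current symbols or synonyms were matched. Per-array values were given by rule for members with an adjusted p under 0.1, the highest and lowest change of each role group, and CycB, Incenp, fzy, pim and SAK. For borr, scra, fzr, Bub3, SMC2, glu and cid they were added after the values were seen. Of the further mitotic list, up to 2 genes per role with the largest absolute change were named. One gene that this rule names is not reported here. Members and lists were chosen with earlier results of these data known. No sequences were shown, and no coordinates, as the build of the chip's design was not given in the sources used here.

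Alternatives were a second quantile normalisation, median centring, brighter probe sets alone, an intensity trend with robust moderation, weighted arrays, a block for the replicate number, averaging over all probe sets of a gene, no fold cut-off, and leaving out each array.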

Additional observations from a re-analysis of the deposited data

How the results depend on the processing

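The 197 probe sets called (102 higher and 95 lower in lgl) became 395 among the brighter probe sets alone, 12 with array weights and 305 with no fold cut-off. Leaving out 1 array gave 0 to 1306 calls: 0 without any one lgl array, 71 without FRT82B array 1 and 1306 without FRT82B array 2. A lone FRT82B array takes its spread from the lgl arrays, an assumption. The replicate numbers share no stated litter, batch or day, and deviations of same-numbered arrays correlated at 0.03 and 0.07 over 2 pairs. With the replicate block 0 probe sets were called.

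Of the 42 mitosis genes, 1 was called after a second quantile normalisation (feo), where 276 of 18769 probe sets were. Among brighter probe sets 1 was called (feo), where 395 of 9384 were. With no fold cut-off 1 was called (Ndc80), where 1.63% of all probe sets were. At an unadjusted limma p under 0.05, 14 of the 42 were higher and 0 lower among brighter probe sets. There, 14.6% of genes were higher and 12.8% lower. Without 1 array, 0 to 6 were called, the 6 being CycB3, Incenp, borr, scra, feo and spd-2 without FRT82B array 2. The number above both controls was 21 to 25 without 1 lgl array. Fewer arrays overlap less readily, and the share over all genes was not computed for those omissions. With 1 control left the number above it was 23 (array 1) and 36 (array 2), where 32.5% and 32.4% of all genes were. The median change was 0.17 to 0.39 over these omissions. The further mitotic list had 2 calls among brighter probe sets, where 395 of 9384 probe sets were called. It had 1 with no fold cut-off, where 1.63% of all probe sets were called. Without any 1 lgl array it had 0, where 0 of all probe sets were called. With FRT82B array 2 left out the further list did have calls. They are not counted here, as a lone control array has no spread of its own. The adjusted p of Ndc80 ran from 0.0251 to 0.3199, and was 0.0669 without FRT82B array 1, 0.1495 to 0.2 without 1 lgl array, and 0.3199 with the replicate block.

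Of the 20 genes with values by rule, 4 changed sign under some setting. Bub1 had -0.012 after quantile normalisation and -0.006 to 0.115 without 1 array. Nuf2 had 0.044 with the replicate block and -0.47 to 0.33 without 1 array. Without 1 array asl had -0.63 to 0.049 and pim -0.28 to 0.46. The causes were not tested.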

Other observations

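The poly-A spike-in controls, added to the RNA before labelling, were dimmer on the first lgl array than on the others. DapX measured 7.52, 9.66 and 9.52 on the lgl arrays, against 9.95 and 10.28 on the FRT82B arrays, and LysX 5.12, 6.81 and 6.68 on the lgl arrays, against 7.38 and 7.54 on the FRT82B arrays. The median deviation of the 42 mitosis genes from their own mean over all arrays was 0.15, 0.18 and 0.05 on the lgl arrays, against -0.06 and -0.28 on the FRT82B arrays.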
